A study of Mus musculus with 30 samples.

Results

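The genes described here are 10 genes of astrocyte homeostasis among the 48820 gene identifiers in the deposited count table, each matched by symbol to 1 identifier. They encode a water channel (Aqp4), a potassium channel (Kcnj10), gap junction connexins (Gjb6, Gja1), glutamate transporters (Slc1a2, Slc1a3) and glutamine synthetase (Glul). The others encode a glycolytic aldolase (Aldoc), a folate enzyme (Aldh1l1) and a phospholipid-pathway lyase (Etnppl). They were chosen by name with results of these data known, and the values taken as used in choosing them are the hippocampal fold changes of LPS over saline. In every comparison that holds hippocampal libraries, saline ones included, their values are therefore a description with no p-value. Counts of called genes stand there only beside the share of all genes called, and nothing is read from them. Adjusted p-values for the 10 genes are given within the frontal cortex alone. Whether cortical results also entered the choice is not known. Of the 16 mice, 14 gave both tissues, so the cortex libraries are mostly from the same animals. The cortical p-values are therefore no independent evidence of a direction.

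RNA sequencing of poly(A)-selected RNA measured 30 libraries of hippocampus and frontal cortex from adult male C57BL/6J mice, 8 to 12 weeks old at the start, in a model of Gulf War Illness. Every mouse, of whatever group, had received corticosterone (CORT, a glucocorticoid stress hormone) to drink for 7 days, at 200 mg/L with ethanol at 0.6%, then on day 8 diisopropyl fluorophosphate (DFP, an organophosphate inhibitor of acetylcholinesterase) at 4 mg/kg. Courses of CORT in alternate weeks followed, to 5 weeks in all. The groups were mice injected with lipopolysaccharide (LPS, a bacterial cell wall component that provokes systemic inflammation) at 0.5 mg/kg and killed 6, 12 or 24 h later (4 libraries per tissue and time), and mice injected with saline and killed at 6 h (3 libraries per tissue). All groups share that history, and mice without it were not analysed here. Saline tissue came from 6 h alone, so the 12 h and 24 h comparisons with saline also differ in collection time.

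Astrocytes keep the fluid around neurons in balance: their endfeet on blood vessels carry water and potassium channels, and gap junctions couple the cells into a network through which ions and metabolites spread. After synaptic release they take up glutamate through sodium-coupled transporters, and glutamine synthetase turns it into glutamine that neurons can reuse. Reactive astrocytes, the state found in inflamed tissue, are known mainly by other genes, such as the filament gene Gfap.

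The sequences before the starts of 3 genes that stood lower after LPS in both tissues (Gjb6, Glul, Etnppl), and of 1 whose groups overlapped throughout (Slc1a3), are shown because they let the members that moved together be read side by side. Each is the 250 bases before a RefSeq transcript start on GRCm38.p6, written 5′ to 3′ along the gene. The Gjb6 window is chr14:57133612-57133861, minus strand. That of Glul is chr1:153899679-153899928, plus strand, and it overlaps exons of other annotated transcripts. That of Etnppl, before the first of its annotated starts, is chr3:130617198-130617447, plus strand. The Slc1a3 window is chr15:8710808-8711057, minus strand. Capitals mark matches on either strand to AGAACA, a glucocorticoid receptor half-site, or to TTCNNNGAA, the spacing that STAT factors bind.
Gjb6: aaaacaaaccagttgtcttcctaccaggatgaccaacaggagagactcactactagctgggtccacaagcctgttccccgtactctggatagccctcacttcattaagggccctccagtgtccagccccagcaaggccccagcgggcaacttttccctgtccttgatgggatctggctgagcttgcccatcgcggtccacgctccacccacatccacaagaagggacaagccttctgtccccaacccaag
Glul: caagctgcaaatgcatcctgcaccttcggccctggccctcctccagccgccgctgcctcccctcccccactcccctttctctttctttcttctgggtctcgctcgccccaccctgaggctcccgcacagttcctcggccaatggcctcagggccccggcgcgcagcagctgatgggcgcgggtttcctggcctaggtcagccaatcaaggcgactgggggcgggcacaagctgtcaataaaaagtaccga
Etnppl: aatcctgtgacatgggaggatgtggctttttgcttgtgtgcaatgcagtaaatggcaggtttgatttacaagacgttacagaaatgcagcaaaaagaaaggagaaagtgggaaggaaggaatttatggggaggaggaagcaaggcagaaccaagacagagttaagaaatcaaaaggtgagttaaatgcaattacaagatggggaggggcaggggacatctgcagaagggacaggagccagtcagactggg
Slc1a3: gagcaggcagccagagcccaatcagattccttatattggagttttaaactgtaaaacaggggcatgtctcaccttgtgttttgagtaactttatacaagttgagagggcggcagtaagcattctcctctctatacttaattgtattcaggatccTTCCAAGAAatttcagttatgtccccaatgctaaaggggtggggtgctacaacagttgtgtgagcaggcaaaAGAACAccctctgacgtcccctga
Neither motif stood in the windows of Gjb6, Glul or Etnppl. In that of Slc1a3, AGAACA began 24 bases and TTCNNNGAA 96 bases before the start, with no overlap between them. Windows were found for 9 of the 10 genes, all but Aqp4. Of these 9, 2 held AGAACA (Slc1a3 and Kcnj10) and 2 held TTCNNNGAA (Slc1a3 and, before its second start, Aldoc). Among all 32851 windows of this length, 16.08% held AGAACA and 7.02% held TTCNNNGAA. These are matches of letters, and nothing follows from them about any factor.

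The libraries held 16826882 to 33034295 counts, of which the 10 genes took 0.431 to 0.615%. Their expression is given in CPM, counts relative to library size, scaled by edgeR's TMM factors over the 30 libraries. Fold changes are log2, LPS over saline, with their standard errors (SE) from edgeR. A gene is said to be called where edgeR's quasi-likelihood test gives an adjusted p at or below 0.05 (Benjamini-Hochberg over all genes tested). All 10 genes passed the filter on low counts in every fit. Against the tissue labels 10 markers of each region were checked. After saline 9 hippocampal markers were called higher in the hippocampus and 0 lower, and of the cortical markers 8 were called lower there and 2, Bcl11b and Fezf2, higher, against the label. Hippocampal markers summed to 788.8 to 922.8 CPM in hippocampal libraries and 143.8 to 221.9 CPM in cortical ones, and cortical markers to 584.8 to 690.7 CPM in hippocampal libraries and 1239 to 1773 CPM in cortical ones. In bulk tissue fewer astrocytes and less RNA per astrocyte cannot be told apart.

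Per length of exons after saline, the 10 genes spanned a wide range of levels. Glul was highest, at 509.7 ± 37.4 CPM per kb of exons in the hippocampus and 585.7 ± 23.8 in the cortex (mean ± SD, n = 3). Aldoc followed at 350.3 ± 6.64 CPM per kb in the hippocampus and 364.1 ± 13.7 in the cortex. The transporter Slc1a2 had 127.5 ± 4.35 and 132.7 ± 24.0 CPM per kb, and Slc1a3 had 56.7 ± 2.19 and 52.9 ± 3.99. These 4 kept this order in both tissues, with no overlap of neighbours' mean ± SD. Below them Gjb6 had 29.7 ± 3.5 CPM per kb in the hippocampus and 35.9 ± 1.25 in the cortex, and Kcnj10 had 24.9 ± 1.65 and 33.1 ± 6.09, so the SDs of these neighbours overlapped in both tissues. At the low end Gja1 had 14.8 ± 0.325 and 13.7 ± 0.933 CPM per kb, Aldh1l1 10.7 ± 0.909 and 15.5 ± 0.831, Aqp4 10.8 ± 1.18 and 9.07 ± 1.38, and Etnppl 6.28 ± 0.957 and 10.7 ± 0.485. The SDs of Aqp4 and Aldh1l1 overlapped in the hippocampus, as did those of Aqp4 and Etnppl in the cortex. The place of Gja1 depends on the length used, since its exons span 10257 bases together and 3889 in the longest transcript. By the longest transcript it stood at 39.0 ± 0.856 CPM per kb in the hippocampus and 36.1 ± 2.46 in the cortex. With that length 68 of the group means of the 10 genes moved by more than 1 SD and 12 did not. Slc1a3 (8537 bases of exons, 4435 in the longest transcript) and Etnppl (8262 and 4468) moved most after Gja1. Etnppl then stood at 19.8 ± 0.897 CPM per kb in the cortex, above Aldh1l1 at 16.8 ± 0.899, while the order of the first 4 genes was kept.

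**Figure D1:**
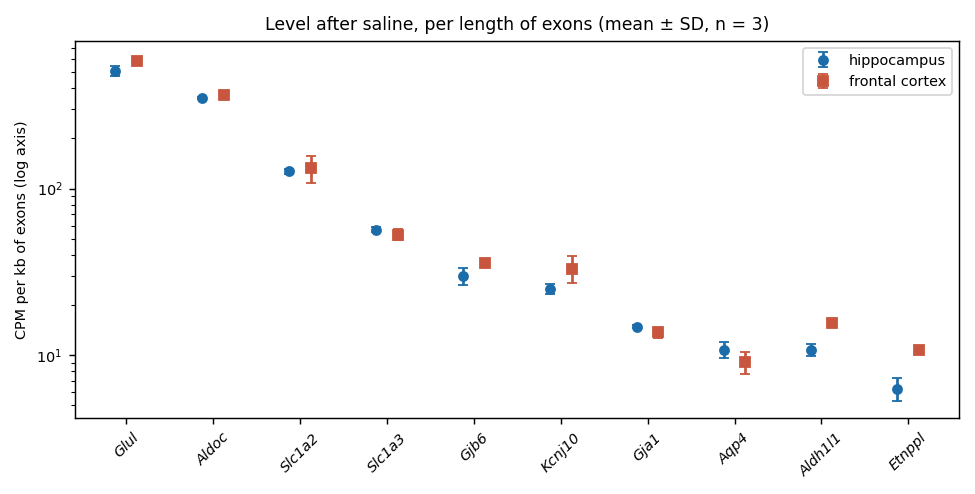
Level of each gene after saline, in CPM per kb of exons (log axis), for hippocampus (circles) and frontal cortex (squares). Points are means with SD over 3 libraries. Glul, Aldoc, Slc1a2 and Slc1a3 head the order in both tissues, and Aqp4 and Etnppl are among the 3 lowest in each.

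Aqp4 was higher after LPS in both tissues from 12 h, and Kcnj10 in the hippocampus at 24 h. Aqp4, aquaporin 4 of the astrocyte endfoot (ENSMUSG00000024411.9, chromosome 18, 15389496 to 15410982 on GRCm38), had 73.5, 76.5, 79.9 and 82.2 CPM at 6 h after LPS, 96.0, 100.2, 100.8 and 107.8 CPM at 12 h and 110.1, 112.7, 112.7 and 114.0 CPM at 24 h, against 62.8, 62.8 and 75.5 CPM after saline in the hippocampus. All 12 h and 24 h libraries lay above all saline libraries, the 24 h libraries lay above all 12 h ones, and the 6 h group overlapped with saline. Its log2 fold change over saline was 0.21 ± 0.06 at 6 h, 0.60 ± 0.06 at 12 h and 0.75 ± 0.06 at 24 h. In the cortex it had 61.0, 63.9, 64.6 and 66.6 CPM at 6 h after LPS, 61.8, 72.0, 81.8 and 84.3 CPM at 12 h and 75.8, 76.8, 84.5 and 84.6 CPM at 24 h, against 47.0, 58.8 and 63.8 CPM after saline. There the 24 h libraries were all above saline, and at 12 h 1 library (mouse A258, 61.8 CPM) fell within the saline range. It rose at 12 h and 24 h in the cortex, with log2 fold changes of 0.19 ± 0.10 at 6 h, 0.41 ± 0.10 at 12 h and 0.51 ± 0.10 at 24 h (edgeR adjusted p = 0.319, 0.0173 and 0.00406).

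The saline cortex library of mouse A224 had the lowest Aqp4, at 47.0 CPM. Without that library the 12 h value was 0.30 and was not called (adjusted p = 0.109). Nor was it without the 12 h libraries of A259 (0.35, 0.0601) or A261 (0.33, 0.0838), with limma-voom (0.30, 0.0645) or in a fit of the compared groups alone (0.41, 0.0803). Adjusted p lay between 0.00288 and 0.109 over the 14 alternatives. At 24 h Aqp4 was called under all 14.

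Kcnj10, which encodes the inward rectifier Kir4.1 that buffers extracellular potassium (ENSMUSG00000044708.5, chromosome 1, 172341210 to 172374085), had 135.5, 136.3, 144.1 and 145.2 CPM at 6 h after LPS, 143.4, 148.3, 161.1 and 166.7 CPM at 12 h and 172.8, 177.5, 193.0 and 194.7 CPM at 24 h, against 129.4, 129.8 and 145.0 CPM after saline in the hippocampus. The 24 h libraries lay above all the others, and the earlier groups overlapped with saline. Log2 fold changes were 0.05 ± 0.06 at 6 h, 0.20 ± 0.06 at 12 h and 0.45 ± 0.06 at 24 h. In the cortex it had 150.4, 161.1, 169.3 and 169.9 CPM at 6 h after LPS, 181.4, 182.2, 213.0 and 221.2 CPM at 12 h and 202.6, 203.9, 220.7 and 230.5 CPM at 24 h, against 143.8, 184.1 and 209.1 CPM after saline. All groups overlapped with saline there, whose 3 libraries were widely spread. The cortical log2 fold changes of -0.13 ± 0.10 at 6 h, 0.16 ± 0.10 at 12 h and 0.26 ± 0.10 at 24 h did not pass (adjusted p = 0.492, 0.422 and 0.169). At 24 h Kcnj10 passed without saline A226 (0.38, adjusted p = 0.046) or scaled by library totals (0.34, 0.044), within a range of 0.044 to 0.553 over the alternatives.

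**Figure D2:**
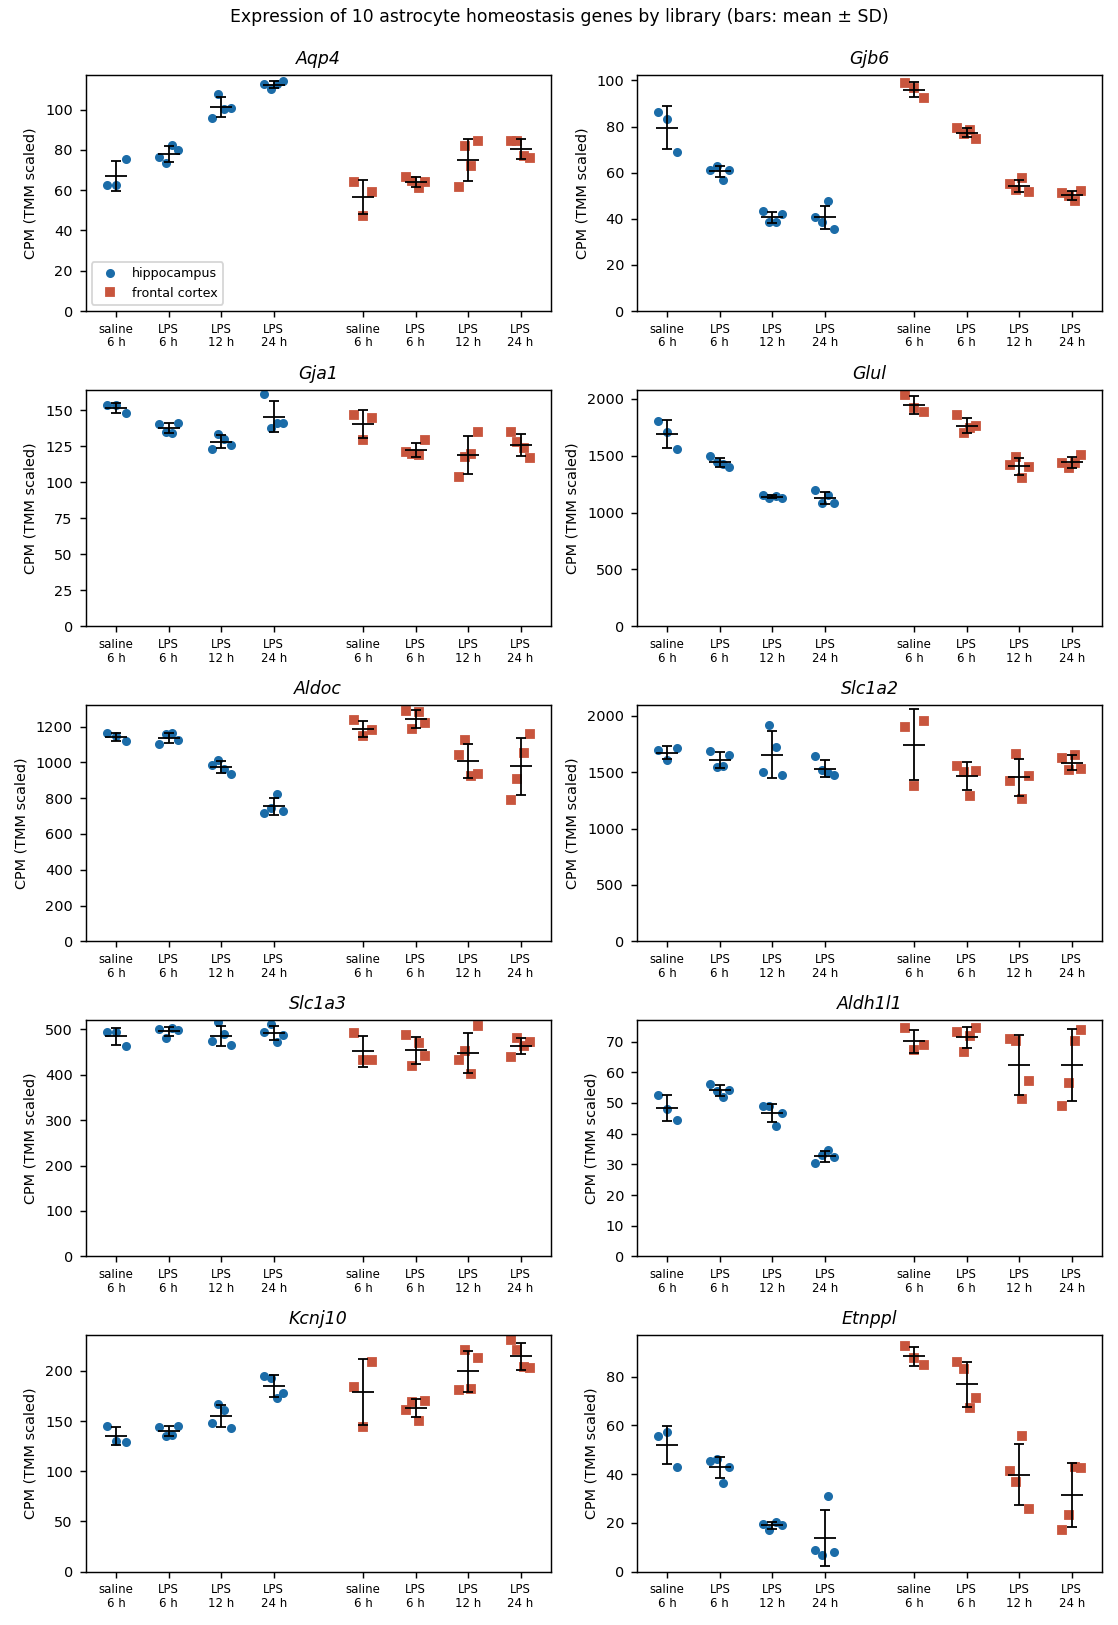
Expression of each gene in every library, in CPM scaled by TMM factors, for saline at 6 h and LPS at 6, 12 and 24 h in the hippocampus (circles, left) and frontal cortex (squares, right). Points are libraries, and bars are mean ± SD (saline n = 3, LPS n = 4). Gjb6, Glul and Etnppl at 12 h and 24 h sit below all saline libraries in both tissues, Aqp4 at 24 h sits above them, and Slc1a3 overlaps throughout.

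Of the 2 connexins of astrocyte gap junctions, Gjb6 was lower after LPS at every time in both tissues, and the fold changes of Gja1 were small. Gjb6, which encodes connexin 30 (ENSMUSG00000040055.8, chromosome 14, 57123303 to 57133611), had 57.0, 61.0, 61.3 and 62.7 CPM at 6 h after LPS, 38.5, 38.5, 42.2 and 43.3 CPM at 12 h and 35.6, 38.5, 40.8 and 47.5 CPM at 24 h, against 68.8, 83.4 and 86.3 CPM after saline in the hippocampus. Every LPS library was below every saline library, and the 12 h and 24 h groups were both below the 6 h group and overlapped with each other. The log2 fold change was -0.40 ± 0.08 at 6 h, -0.97 ± 0.09 at 12 h and -0.97 ± 0.09 at 24 h, the 24 h value being 48.9% below saline. In the cortex Gjb6 had 74.6, 76.9, 78.5 and 79.2 CPM at 6 h after LPS, 51.7, 52.5, 54.9 and 57.6 CPM at 12 h and 47.8, 49.7, 51.2 and 52.1 CPM at 24 h, against 92.3, 96.9 and 98.8 CPM after saline. The groups were as separate there: all LPS libraries lay below saline, and all later ones below those at 6 h. Gjb6 fell in the cortex at every time, by log2 fold changes of -0.30 ± 0.06 at 6 h, -0.82 ± 0.06 at 12 h and -0.93 ± 0.06 at 24 h (edgeR adjusted p = 0.00463, 7.89e-08 and 1.89e-08), and was called at each time under all 14 alternatives.

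Gja1, which encodes connexin 43, the other main astrocyte connexin (ENSMUSG00000050953.9, chromosome 10, 56377330 to 56402513), was at 133.9, 134.9, 140.1 and 141.1 CPM at 6 h after LPS, 123.2, 125.8, 130.3 and 133.7 CPM at 12 h and 137.8, 141.0, 141.3 and 161.4 CPM at 24 h, against 147.8, 153.3 and 153.8 CPM after saline in the hippocampus. The 6 h and 12 h libraries were all below saline, by a smaller margin than those of Gjb6, and at 24 h 1 library (mouse A274) was above saline and the other 3 were below it. Log2 fold changes were -0.15 ± 0.05 at 6 h, -0.24 ± 0.05 at 12 h and -0.06 ± 0.05 at 24 h. In the cortex Gja1 had 118.9, 119.4, 121.1 and 129.2 CPM at 6 h after LPS, 103.3, 117.4, 119.7 and 134.9 CPM at 12 h and 117.1, 123.9, 127.6 and 135.0 CPM at 24 h, against 129.3, 144.9 and 146.7 CPM after saline. The 6 h libraries were all below saline, the highest of them (129.2 CPM) only just below the lowest saline library (129.3 CPM), and the later groups overlapped with saline. The cortical values of -0.19 ± 0.08 at 6 h, -0.24 ± 0.08 at 12 h and -0.15 ± 0.08 at 24 h did not pass in edgeR (adjusted p = 0.208, 0.086 and 0.354). At 12 h it was called by DESeq2 (-0.25, adjusted p = 0.0435), by limma-voom (-0.31, 0.00638) and without LPS 12 h A261 (-0.32, 0.0207), within a range of 0.00638 to 0.288.

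Glul was lower after LPS, and the glutamate transporters overlapped with saline. Glul, glutamine synthetase (ENSMUSG00000026473.15, chromosome 1, 153899944 to 153909723), had 1403, 1431, 1443 and 1494 CPM at 6 h after LPS, 1130, 1131, 1145 and 1155 CPM at 12 h and 1085, 1088, 1153 and 1197 CPM at 24 h, against 1562, 1710 and 1809 CPM after saline in the hippocampus. Each LPS group lay wholly below saline, and both later groups below the 6 h group. The log2 fold change was -0.24 ± 0.05 at 6 h, -0.57 ± 0.05 at 12 h and -0.58 ± 0.05 at 24 h. In the cortex Glul had 1702, 1740, 1764 and 1859 CPM at 6 h after LPS, 1304, 1405, 1420 and 1493 CPM at 12 h and 1388, 1436, 1438 and 1504 CPM at 24 h, against 1881, 1924 and 2034 CPM after saline. Cortical libraries at 12 h and 24 h were all below those at 6 h, which in turn were all below saline. Glul fell in the cortex at 12 h and 24 h (log2 fold change -0.13 ± 0.06 at 6 h, -0.47 ± 0.06 at 12 h and -0.43 ± 0.06 at 24 h, edgeR adjusted p = 0.258, 6.66e-05 and 0.000161), under all 14 alternatives. Its 5′ end overlaps exons of the antisense gene Teddm2, which held 25 to 94 counts per library against 21960 to 60397 for Glul.

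Slc1a2, the glutamate transporter GLT-1 that does most of the clearance in the forebrain (ENSMUSG00000005089.15, chromosome 2, 102658659 to 102790784), had 1547, 1557, 1654 and 1691 CPM at 6 h after LPS, 1479, 1505, 1727 and 1916 CPM at 12 h and 1478, 1491, 1516 and 1641 CPM at 24 h, against 1610, 1694 and 1719 CPM after saline in the hippocampus. The groups overlapped at every time, with log2 fold changes of -0.06 ± 0.07 at 6 h, -0.01 ± 0.07 at 12 h and -0.13 ± 0.07 at 24 h. In the cortex it had 1287, 1503, 1511 and 1560 CPM at 6 h after LPS, 1262, 1422, 1467 and 1666 CPM at 12 h and 1521, 1532, 1631 and 1656 CPM at 24 h, against 1380, 1899 and 1951 CPM after saline. Saline A224, at 1380 CPM, was far below the other 2 saline libraries, and the groups overlapped through it. The cortical log2 fold changes of -0.24 ± 0.11 at 6 h, -0.26 ± 0.11 at 12 h and -0.13 ± 0.11 at 24 h did not pass (adjusted p = 0.23, 0.177 and 0.618). Without that library Slc1a2 was called lower at 6 h (-0.38, adjusted p = 0.0423, range over the alternatives 0.0423 to 0.646) and 12 h (-0.40, 0.0186, range 0.0186 to 0.561).

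Slc1a3, the glutamate transporter GLAST (ENSMUSG00000005360.14, chromosome 15, 8634124 to 8710764), had fold changes close to 0 throughout. Its hippocampal libraries spanned 462.2 to 514.7 CPM and its cortical ones 402.0 to 506.0 CPM, with every LPS group overlapping saline. Log2 fold changes were 0.03 ± 0.04 at 6 h, 0.01 ± 0.04 at 12 h and 0.02 ± 0.04 at 24 h in the hippocampus. They were 0.02 ± 0.08 at 6 h, -0.01 ± 0.08 at 12 h and 0.04 ± 0.08 at 24 h in the cortex (adjusted p = 0.922, 0.962 and 0.882). The 95% confidence interval of the cortical 24 h value ran between -0.11 and 0.19.

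Aldoc and Aldh1l1 were lower in the hippocampus at 24 h, and Etnppl was lower from 12 h in both tissues. Aldoc, the aldolase C of astrocyte glycolysis (ENSMUSG00000017390.15, chromosome 11, 78322968 to 78327781), had 1102, 1123, 1160 and 1161 CPM at 6 h after LPS, 934.4, 961.7, 982.2 and 1013 CPM at 12 h and 718.4, 727.6, 744.4 and 822.7 CPM at 24 h, against 1120, 1146 and 1163 CPM after saline in the hippocampus. At 6 h it overlapped with saline, the 12 h libraries lay below saline, and those at 24 h lay below all at 12 h. Log2 fold changes were -0.01 ± 0.05 at 6 h, -0.23 ± 0.05 at 12 h and -0.60 ± 0.05 at 24 h. In the cortex it had 1187, 1218, 1280 and 1288 CPM at 6 h after LPS, 924.7, 933.3, 1040 and 1123 CPM at 12 h and 789.4, 908.4, 1052 and 1157 CPM at 24 h, against 1146, 1183 and 1235 CPM after saline. The 12 h group was below saline and the 24 h group, the most spread, reached into its range. The cortical values of 0.08 ± 0.10 at 6 h, -0.24 ± 0.10 at 12 h and -0.28 ± 0.10 at 24 h did not pass in edgeR (adjusted p = 0.707, 0.191 and 0.128). At 24 h Aldoc was called by limma-voom (-0.33, adjusted p = 0.0173) and without LPS 24 h A278 (-0.39, 0.02), within a range of 0.0173 to 0.357.

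Aldh1l1, the 10-formyltetrahydrofolate dehydrogenase that serves as a general astrocyte marker (ENSMUSG00000030088.15, chromosome 6, 90486427 to 90600203), had 52.0, 53.9, 54.3 and 56.2 CPM at 6 h after LPS, 42.5, 46.6, 48.9 and 49.0 CPM at 12 h and 30.3, 32.4, 33.0 and 34.7 CPM at 24 h, against 44.5, 48.0 and 52.7 CPM after saline in the hippocampus. At 6 h the libraries at 53.9, 54.3 and 56.2 CPM lay above all saline libraries, and that at 52.0 CPM lay within the saline range. Only at 24 h was the group wholly apart from saline, with all 4 libraries below it. Log2 fold changes were 0.15 ± 0.06 at 6 h, -0.05 ± 0.07 at 12 h and -0.57 ± 0.07 at 24 h. In the cortex Aldh1l1 had 66.7, 71.7, 73.1 and 74.4 CPM at 6 h after LPS, 51.3, 57.2, 70.2 and 71.0 CPM at 12 h and 49.0, 56.6, 70.3 and 73.6 CPM at 24 h, against 67.3, 68.8 and 74.4 CPM after saline, all groups overlapping with saline. The cortical values were 0.04 ± 0.13 at 6 h, -0.17 ± 0.13 at 12 h and -0.17 ± 0.13 at 24 h (adjusted p = 0.897, 0.512 and 0.595).

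Etnppl, ethanolamine-phosphate phospho-lyase, an enzyme that breaks down a precursor of membrane phospholipids (ENSMUSG00000019232.14, chromosome 3, 130617448 to 130637521), stood farthest from saline at 12 h and 24 h in both tissues. It had 36.4, 42.9, 45.5 and 46.2 CPM at 6 h after LPS, 16.9, 19.2, 19.6 and 20.2 CPM at 12 h and 6.83, 8.1, 8.93 and 31.1 CPM at 24 h, against 42.8, 55.4 and 57.4 CPM after saline in the hippocampus. All libraries at 12 h and 24 h were below saline. At 24 h 3 libraries were between 6.83 and 8.93 CPM and the other, mouse A276, at 31.1 CPM, was above every 12 h library. Log2 fold changes were -0.28 ± 0.37 at 6 h, -1.45 ± 0.39 at 12 h and -1.89 ± 0.40 at 24 h. Without A276 the 24 h value was -2.70. In the cortex Etnppl had 67.0, 71.2, 83.2 and 85.8 CPM at 6 h after LPS, 25.5, 36.9, 41.1 and 55.7 CPM at 12 h and 16.9, 23.4, 42.6 and 42.8 CPM at 24 h, against 84.6, 87.6 and 92.5 CPM after saline. Every 12 h and 24 h library was below saline, and both groups were widely spread. Etnppl fell in the cortex at 12 h and 24 h (log2 fold change -0.19 ± 0.30 at 6 h, -1.15 ± 0.30 at 12 h and -1.48 ± 0.30 at 24 h, edgeR adjusted p = 0.754, 0.0403 and 0.0121).

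The 12 h call of Etnppl in the cortex was close to the threshold. It was lost with library totals alone (-1.07, adjusted p = 0.0528), with no filter (-1.14, 0.0757), without any 1 saline library (0.0936 to 0.122) and without LPS 12 h A258, A259 or A261 (0.0696 to 0.0941), within a range of 0.00476 to 0.122. At 24 h it was lost in the fit of the compared groups alone (-1.48, 0.0881, range 8.4e-05 to 0.0881).

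**Figure D3:**
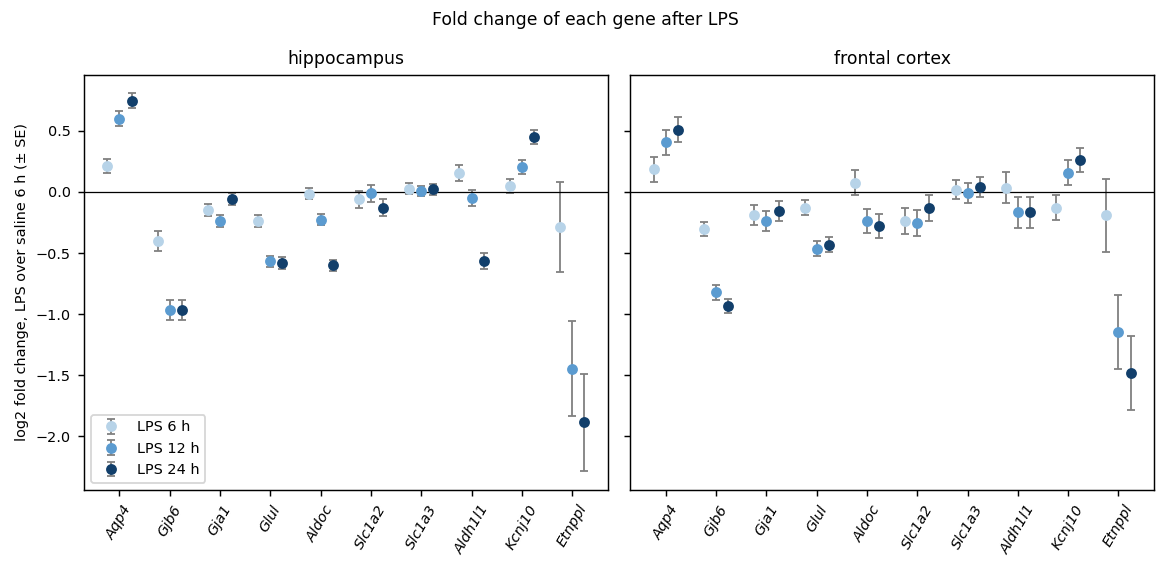
Log2 fold change of each gene over saline 6 h at 6, 12 and 24 h after LPS (light to dark), in the hippocampus (left) and frontal cortex (right). Points are edgeR estimates and bars are ± SE. At 12 h and 24 h Etnppl and Gjb6 lie lowest and Aqp4 highest in both tissues.

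Counted over the 10 genes in the cortex, 0 were called higher and 1 lower at 6 h (2.3% and 1.2% of all 17111 genes tested), 1 higher and 3 lower at 12 h (4.13% and 2.99%), and 1 higher and 3 lower at 24 h (3.73% and 2.38%). Their median log2 fold change was -0.13, -0.24 and -0.16, against 0.013, 0.009 and -0.001 over all genes. In the hippocampus, where the comparison is taken as used to choose them, 1 was called higher and 2 lower at 6 h (2.96% and 2.15% of 17289 genes). There 2 were called higher and 5 lower at 12 h (6.07% and 6.28%) and likewise at 24 h (6.76% and 6.6%). Nothing is read from these counts and medians in either tissue, since the 10 genes were chosen with results of these data known.

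The course between LPS times involves no saline library. In the cortex from 6 h to 12 h, 0 of the 10 genes were called higher and 2 lower (0.614% of all genes in each direction). They were Gjb6, at 54.2 ± 2.66 CPM at 12 h and 77.3 ± 2.04 CPM at 6 h (mean ± SD, n = 4 each; log2 fold change -0.52 ± 0.06, edgeR adjusted p = 6.02e-05), and Glul, at 1406 ± 77.8 and 1766 ± 66.9 CPM (-0.34 ± 0.06, adjusted p = 0.0076). Both were called under all 15 alternatives. Etnppl was lower in all 12 h libraries than in all 6 h ones but did not pass (-0.96 ± 0.28, adjusted p = 0.135). It did with DESeq2 (-0.95, adjusted p = 0.039) and with the compared groups alone (-0.95, 0.0485), within a range of 0.039 to 0.292. Aldoc (-0.31 ± 0.09, 0.107), Kcnj10 (0.29 ± 0.09, 0.143) and Aqp4 (0.22 ± 0.09, 0.289) did not pass either.

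From 12 h to 24 h in the cortex edgeR called 0 of 17111 genes, the 10 included (310 at an unadjusted p under 0.05, none of the 10 among them). DESeq2 and limma-voom also called 0. In the hippocampus from 6 h to 12 h, 1 of the 10 was called higher and 3 lower (1.14% and 1% of all genes), and from 12 h to 24 h 2 higher and 2 lower (0.885% and 1.26%), counts from which nothing is read. From 12 h to 24 h there, the log2 fold change was -0.37 ± 0.04 for Aldoc, -0.52 ± 0.06 for Aldh1l1, 0.25 ± 0.05 for Kcnj10 and 0.18 ± 0.05 for Gja1. It was -0.00 ± 0.08 for Gjb6 and -0.01 ± 0.04 for Glul. Every 24 h library was below every 12 h library for Aldoc and Aldh1l1, and these groups overlapped for Gjb6 and Glul.

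At 24 h the spread among mice differed between genes. In the hippocampus the library of A276 had the highest Etnppl (31.1 CPM), Aldoc (822.7 CPM), Aldh1l1 (34.7 CPM) and Gjb6 (47.5 CPM) of the 4. In the cortex A276 and A278 had 42.8 and 42.6 CPM of Etnppl, against 16.9 CPM in A274 and 23.4 CPM in A275. Aldoc was likewise at 1052 and 1157 CPM in A276 and A278, against 789.4 and 908.4 CPM in A274 and A275, and Aldh1l1 at 70.3 and 73.6, against 49.0 and 56.6 CPM. Glul, at 1388 to 1504 CPM in these 4 cortical libraries, and Gjb6, at 47.8 to 52.1 CPM, did not show this split.

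Without LPS, several of these genes stood lower in the hippocampus than in the cortex. The hippocampal saline libraries also enter the fold changes taken as used to choose the genes, so these differences are a description. Aldh1l1 averaged 48.4 ± 4.11 CPM in the hippocampus and 70.2 ± 3.75 CPM in the cortex (SD, n = 3 each), with no overlap and a log2 difference of -0.54 ± 0.11 (SE). Kcnj10 averaged 134.7 ± 8.89 CPM in the hippocampus and 179.0 ± 33.0 CPM in the cortex (-0.41 ± 0.09), and the groups overlapped through the cortical library of A224. Gjb6 averaged 79.5 ± 9.35 and 96.0 ± 3.34 CPM (-0.27 ± 0.08), and Glul 1694 ± 124.3 and 1946 ± 78.9 CPM (-0.20 ± 0.06), both without overlap. Without the hippocampal library of A226 these values were -0.18 for Gjb6 and -0.14 for Glul.

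Etnppl had 42.8, 55.4 and 57.4 CPM in the hippocampus and 84.6, 87.6 and 92.5 CPM in the cortex, with no overlap (-0.77 ± 0.37). Aqp4 differed the other way, at 67.0 ± 7.33 CPM in the hippocampus and 56.5 ± 8.6 CPM in the cortex (0.24 ± 0.09), with overlap. Its value was 0.15 without hippocampal A226 and 0.13 without cortical A224. The log2 difference was 0.11 ± 0.07 for Gja1, 0.10 ± 0.07 for Slc1a3, -0.06 ± 0.09 for Aldoc and -0.06 ± 0.10 for Slc1a2. Of the 10 genes 1 was called higher in the hippocampus and 4 lower (19.9% and 17.2% of 17650 genes tested).

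The difference between the tissues in the response to LPS was estimated in 1 fit of all 30 libraries. None of the 10 genes was called at 6, 12 or 24 h (0%, 0.0963% and 0.125% of all 17650 genes). These values use the hippocampal libraries and are given as a description, and nothing is read from the count. At 24 h the log2 response of the hippocampus minus that of the cortex was -0.40 ± 0.15 for Aldh1l1, -0.32 ± 0.11 for Aldoc, 0.24 ± 0.12 for Aqp4, -0.15 ± 0.07 for Glul and 0.20 ± 0.12 for Kcnj10. For Gjb6 it was -0.03 ± 0.10 and for Etnppl -0.41 ± 0.51, which was -1.22 without hippocampal A276. With the mouse as a fixed block the Aqp4 value was 0.10 at 24 h, against 0.24 ± 0.12 without it.

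Other genes of astrocyte upkeep were called in both directions. All lists from here on, that of family relatives included, were chosen with results of these data known. Their counts and adjusted p-values, in either tissue, are therefore no independent evidence of a direction. Over 62 genes of upkeep on 4 lists, 2 were called higher and 3 lower in the cortex at 6 h (2.3% and 1.2% of all genes). At 12 h 1 was higher and 6 lower (4.13% and 2.99%), and at 24 h 3 and 5 (3.73% and 2.38%). In the hippocampus 8 were called higher and 2 lower at 6 h (2.96% and 2.15%). There 12 and 9 were called at 12 h (6.07% and 6.28%), and 7 and 16 at 24 h (6.76% and 6.6%). The median log2 fold change of the 62 was between -0.045 and 0.037 in these 6 comparisons, against -0.004 to 0.013 over all genes. The same shares of all genes apply to the counts of each list below.

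Of 15 genes of the endfoot, potassium and cell volume, 0 were called higher and 1 lower in the cortex at 6 h, 0 and 3 at 12 h and 0 and 2 at 24 h. In the hippocampus the counts were 0 and 0, 2 and 2, and 2 and 4. The median log2 fold change of this list was -0.05, 0.01 and -0.08 in the hippocampus and -0.14, -0.075 and -0.07 in the cortex. Hepacam, which encodes the adhesion protein GlialCAM, had 67.1 ± 0.79 CPM at 24 h in the hippocampus, against 84.9 ± 5.01 CPM after saline (mean ± SD; log2 fold change -0.34 ± 0.06, adjusted p = 0.000156), and it also fell in the cortex (-0.27 ± 0.06, adjusted p = 0.0139). The chloride channel gene Clcn2 fell at 24 h in the hippocampus (-0.33 ± 0.07, adjusted p = 0.00122) and cortex (-0.34 ± 0.07, adjusted p = 0.00455). The sodium bicarbonate cotransporter gene Slc4a4 rose at 12 h in the hippocampus (0.41 ± 0.06, adjusted p = 1.23e-05). The sodium pump subunit gene Atp1b2 fell there at 24 h (-0.23 ± 0.05, adjusted p = 0.00127).

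Of 14 genes of amino acid and transmitter handling, 1 was called higher and 0 lower in the cortex at each time. In the hippocampus the counts were 2 and 0, 4 and 1, and 2 and 1 at 6, 12 and 24 h. Median log2 fold changes of the list were between -0.02 and 0.07. Slc7a11, the cystine and glutamate exchanger xCT, was the gene called in all 6 comparisons. It had 50.5 ± 6.94 CPM at 24 h in the hippocampus, against 19.6 ± 0.708 CPM after saline (log2 fold change 1.36 ± 0.17, adjusted p = 0.000156), and 51.4 ± 5.19 CPM in the cortex, against 28.6 ± 3.86 CPM (0.84 ± 0.11, adjusted p = 5.04e-05). Grm3, a metabotropic glutamate receptor gene of astrocytes, rose in the hippocampus at 6 h (0.46 ± 0.09, adjusted p = 0.0028) and 12 h (0.52 ± 0.09, adjusted p = 0.000371). The GABA transporter gene Slc6a11 rose there at 24 h (0.23 ± 0.06, adjusted p = 0.0103).

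Of 16 genes of astrocyte energy and lipid metabolism, 1 was called higher and 0 lower in the cortex at 6 h, 0 and 1 at 12 h and 0 and 0 at 24 h, where the smallest adjusted p was 0.0726, for Pygm. In the hippocampus 1 and 1, 2 and 3, and 1 and 5 were called. Median log2 fold changes ran from -0.075 to 0.062. Pygm, a glycogen phosphorylase, had 18.5 ± 1.2 CPM at 24 h in the hippocampus, against 37.8 ± 3.03 CPM after saline (-1.03 ± 0.07, adjusted p = 3.54e-10), and it fell in the cortex at 12 h (-0.63 ± 0.16, adjusted p = 0.0211). The metallothionein gene Mt3 (-0.35 ± 0.05, adjusted p = 2.75e-05) and Acsbg1, an acyl-CoA synthetase gene of glia (-0.24 ± 0.05, adjusted p = 0.000816), fell in the hippocampus at 24 h.

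Of 17 genes of astrocyte identity and signalling, 0 were called higher and 2 lower in the cortex at 6 h and again at 12 h, and 2 and 3 at 24 h. In the hippocampus 5 and 1, 4 and 3, and 2 and 6 were called. The median log2 fold change ran from -0.12 to 0.07. The growth factor receptor gene Fgfr3 was lower in all 6 comparisons, at 78.9 ± 9.0 CPM at 12 h in the hippocampus, against 128.4 ± 16.5 CPM after saline (-0.70 ± 0.09, adjusted p = 2.31e-05), and 94.8 ± 11.9 CPM in the cortex, against 141.6 ± 10.5 CPM (-0.57 ± 0.10, adjusted p = 0.00134). S1pr1, a sphingosine phosphate receptor gene, rose at 24 h in the hippocampus (0.27 ± 0.04, adjusted p = 0.00011) and the cortex (0.29 ± 0.08, adjusted p = 0.0412). Ndrg2, an abundant astrocyte gene, fell in the hippocampus at 12 h (-0.18 ± 0.04, adjusted p = 0.00206) and 24 h (-0.47 ± 0.04, adjusted p = 8.89e-09).

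Of 24 relatives of the 10 genes by family, 2 were called higher and 1 lower in the cortex at 6 h, 1 and 0 at 12 h and 1 and 1 at 24 h. In the hippocampus 3 and 0, 4 and 0, and 4 and 1 were called, and median log2 fold changes were between 0.02 and 0.06 in all 6. Gjb1, connexin 32 of oligodendrocytes, rose at 6 h in the hippocampus (0.74 ± 0.14, adjusted p = 0.00198) and cortex (0.67 ± 0.11, adjusted p = 0.00172). Gjb2, connexin 26 of meninges and some astrocytes, rose at 6 h in both (0.51 ± 0.15, adjusted p = 0.0455 in the hippocampus and 0.61 ± 0.15, adjusted p = 0.0264 in the cortex). Gjc1, connexin 45, fell in the cortex at 6 h (-0.85 ± 0.22, adjusted p = 0.0369). Aldoa, the more general aldolase, fell at 24 h in the hippocampus (-0.17 ± 0.04, adjusted p = 0.00516).

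Many genes of the reactive astrocyte list rose. Of 26 such genes, all tested in the cortex, 13 were called higher and 1 lower at each time there. In the hippocampus, where 25 were tested, 10 and 1, 16 and 1, and 13 and 3 were called at 6, 12 and 24 h. The list's median log2 fold change was 0.57, 0.74 and 0.77 in the hippocampus and 0.52, 0.63 and 0.61 in the cortex. This list, too, was chosen with results of these data known, so its counts are no independent evidence of its direction. The lower call in every comparison was Fkbp5, a co-chaperone that glucocorticoids induce, at 32.6 ± 2.85 CPM at 24 h in the cortex, against 98.8 ± 17.4 CPM after saline (-1.59 ± 0.14, adjusted p = 1.8e-06). C4b, a complement gene, rose at 24 h in the cortex (0.94 ± 0.10, adjusted p = 4.27e-06). In bulk tissue the cells that gave these transcripts, astrocytes or others, cannot be told.

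**Figure D4:**
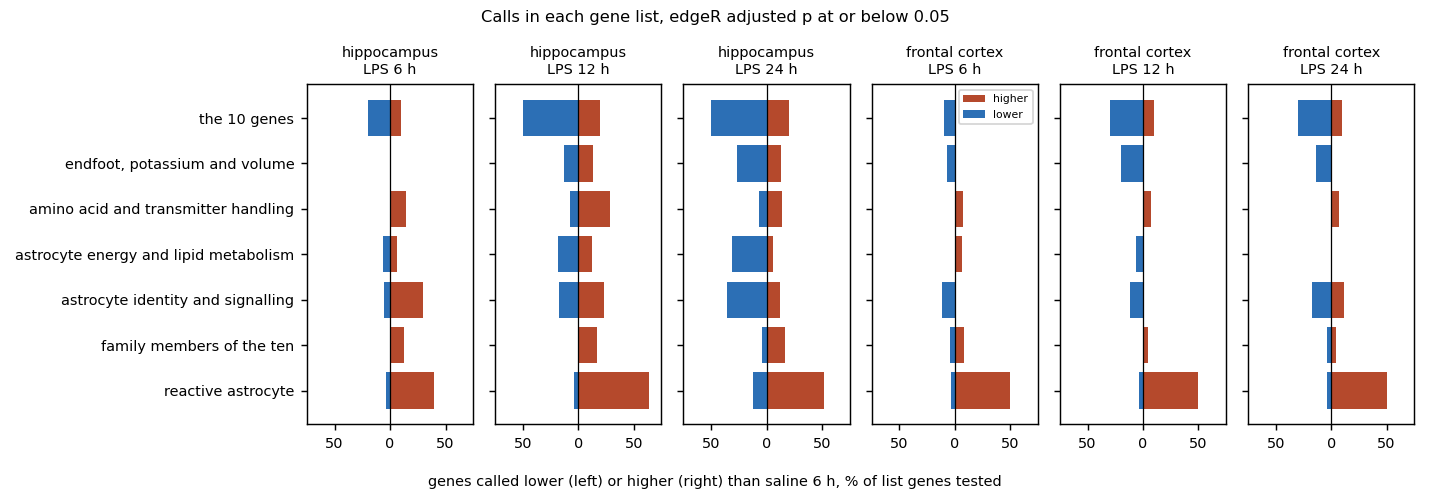
Share of tested genes called lower (left of 0) and higher (right of 0) than saline 6 h by edgeR, in percent, for the 10 genes and 6 other lists in each of the 6 comparisons. Bars are shares of each list. In the cortex the bars of the 10 genes run mostly to the left, but these genes were chosen with results of these data known. Their hippocampal bars show calls in comparisons taken as used to choose them. Nothing is read from the bars of the 10 genes in either tissue. The reactive astrocyte bars run mostly to the right, but that list, too, was chosen with results of these data known.

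The genes with the most similar fold changes were found by the root mean square difference over the 6 comparisons of LPS with saline, which share their saline libraries. For Aldoc the nearest were Plin3 (0.016), Retsat (0.054) and Ndrg2 (0.061). For Glul they were Nt5dc2 (0.053), Scrt2 (0.059) and Pdk4 (0.06), and for Gjb6 Smox (0.121), Sdc4 (0.129) and Asb11 (0.139). For Etnppl no gene was as near: Xdh stood at 0.188, Castor1 at 0.276 and Ddc at 0.308. Kcnj10 was nearest to Chn2 (0.052), Plxdc2 (0.056) and Adam17 (0.066), and Aqp4 to 9930111J21Rik1 (0.076), Rps6ka1 (0.086) and Gmip (0.105). Aldh1l1 was nearest to Scara3 (0.084), Barx2 (0.088) and 2310058D17Rik (0.089). For Gja1, Slc1a2 and Slc1a3, whose fold changes were small, the nearest were Itpr1 (0.026), Plxna4 (0.021) and Dixdc1 (0.014). By the largest absolute difference in place of the root mean square, the nearest gene was another for Gjb6 (Cbs), Glul (Scrt2), Aldh1l1 (Ndrg2) and Kcnj10 (Adam17), and the same for the other 6.

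Markers of other cell types moved beside these genes. The summed level of 12 microglia and macrophage genes was 255.1 to 305.0, 329.0 to 359.9 and 481.4 to 517.0 CPM at 6, 12 and 24 h in the hippocampus, against 254.8 to 326.4 CPM after saline. In the cortex it was 217.2 to 320.5, 353.6 to 620.8 and 380.4 to 543.4 CPM, against 260.7 to 315.2 CPM. The 10 endothelial genes summed to 265.3 to 272.5 CPM at 24 h in the hippocampus, against 202.7 to 221.6 CPM after saline, and to 277.2 to 370.6 CPM in the cortex, against 250.9 to 284.8 CPM. The 12 neuronal genes summed to 8479 to 8623 CPM at 24 h in the hippocampus, against 8998 to 9324 CPM, and to 8979 to 9818 CPM in the cortex, against 9700 to 11070 CPM. The summed levels of the oligodendrocyte (10), meningeal (11) and blood (7) lists overlapped with saline at 24 h in the hippocampus. In the cortex the meningeal sum was lower at 24 h, 265.6 to 301.4 against 324.4 to 351.0 CPM, and the other 2 overlapped. The meningeal sum includes Cldn11, which is also on the oligodendrocyte list and averaged 157.5 CPM in the saline cortex. It is therefore no measure of meningeal tissue alone. The blood sum was mostly haemoglobin genes and hides S100a8 and S100a9, which were near the floor after saline. At 24 h in the cortex S100a8 had 2.95 CPM, against 0.178 CPM (log2 fold change 3.94 ± 0.39, edgeR adjusted p = 3.91e-06). S100a9 had 3.88 CPM, against 0.11 CPM (5.18 ± 0.51, edgeR adjusted p = 5.79e-06). At 6 h in the hippocampus both were also called higher (5.60 ± 0.53 and 6.02 ± 0.56). None of the markers on these lists was at 0 in all libraries of a group. The part of these shifts in the values of the 10 genes was not tested.

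Choroid plexus and ependymal genes (11) varied widely between libraries, from 65.8 to 2424 CPM at 12 h in the hippocampus, against 103.0 to 1337 CPM after saline. The highest were LPS 12 h A261 and saline A222. Each hippocampal library of the LPS 12 h and saline groups, these 2 among them, was left out in turn. The 12 h log2 fold change then stayed within 0.55 to 0.69 for Aqp4, -1.06 to -0.90 for Gjb6 and -0.62 to -0.51 for Glul. In the cortex the highest was saline A224, at 1057 CPM. That library also had the lowest Aqp4, Slc1a2, Kcnj10, Gja1, Aldoc and Aldh1l1 of its group, and it was the shallowest of the 30 libraries (16826882 counts). The part of this in the values of these genes was not tested.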

How the data were processed

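RNA was measured in 15 hippocampal and 15 frontal cortex libraries, as stranded poly(A) libraries read as pairs of 150 bases, per the labels' protocols. The authors deposited raw counts per gene for all 30 libraries. The submitters' processing notes name Trim Galore 0.4.1, FastQC, STAR 2.6.0a, DESeq2 and GRCm38 (mm10). For the read counter, its strand setting and the annotation, the sources used here give nothing. The members and all lists were chosen with earlier results of these data known.

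Of 48820 identifiers 48058 had a symbol. Counts were tested with edgeR 4.0.16 in R 4.3.3 (robust quasi-likelihood, TMM factors, filterByExpr with a minimum count of 10 and a minimum total of 15), fitted to the 15 libraries of a tissue (17289 genes in the hippocampus and 17111 in the cortex) or to all 30 (17650 genes) for comparisons between tissues, with Benjamini-Hochberg adjustment over all genes tested. The SE is the absolute log2 fold change divided by the square root of the F statistic. CPM per kb used the union of exons. The fits were tested on simulated data. Values were read with Python 3.11.15 and pandas 2.3.3 and drawn with matplotlib 3.10.9.

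All 10 members were named in every comparison, and from each other list up to 4 called genes with the smallest p, or up to 2 where none was called. Some genes that this rule names are not reported here. Likeness was taken among genes tested in both tissues with a mean log2 CPM of at least 1. Genes whose largest absolute fold change was small relative to the member's were left out. Alternatives were DESeq2 size factors, library totals, 2 other filters, DESeq2 1.42.0, limma-voom (limma 3.58.1), the compared groups alone, each library left out, and the mouse as a block. The saline comparison between tissues, planned as a test of the members, is given as a description. The hippocampal saline libraries are taken to have entered their choice. The mouse code in the labels pairs tissues: 14 of 16 mice gave both. Deviations of the paired libraries from their group means correlated with a median r of 0.102 (-0.054 to 0.291) over 14113 genes. Libraries of 1 group differed beyond sampling noise (chi-square per gene 2.24 to 25.34), so none was merged. Mitochondrial genes took 6.54 to 11.45% of counts. Each group's libraries are from separate mice.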

Additional observations from a re-analysis of the deposited data

Results flagged for a closer look

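At 24 h after LPS in the hippocampus, the library of mouse A276 held 31.08 CPM of Etnppl, far above the other 3 libraries, with a gap to the nearest of 0.913 of the group's range. In the same group the library of mouse A274 held 161.4 CPM of Gja1, with a gap of 0.852 of the range. Both exceed 0.829, Dixon's 95% critical value for 4 samples. The rule was applied to 60 groups, and chance alone flags about 1 in 20.

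Between LPS times in the cortex, Gjb6 and Glul were called lower at 12 h than at 6 h, with log2 fold changes of -0.52 and -0.34. This tested the LPS groups against each other, with no saline group at 12 h.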

How the results depend on the processing

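Of 962 fold changes of the 10 genes under alternatives that keep every library, 934 counted as unchanged. Within the cortex, and between tissues after saline, unchanged meant the same direction and the same side of the threshold. In the other comparisons it meant a move of less than 1 SD of log2 CPM among a group's libraries, whatever the side of the threshold. Direction was checked there only for genes called in the main fit. Slc1a3 changed sign in the cortex at 6 h (-0.044) and 24 h (-0.014) with limma-voom and at 12 h with library totals (0.069), and Slc1a2 between tissues after saline with the mouse as a fixed effect (0.020). Leaving out 1 library gave Slc1a3 -0.021 to 0.081 at 6 h and -0.086 to 0.054 at 12 h in the cortex, and Slc1a2 -0.199 to 0.032 between tissues. The number called higher was 2 with limma-voom and 0 with the compared groups alone in the hippocampus at 6 h, and 1 with the groups alone from 12 h to 24 h. It was 0 with either setting in the cortex at 12 h, and 2 with library totals at 24 h. After saline it was 0 with DESeq2 size factors, library totals, no filter, the stricter filter, DESeq2, limma-voom and the groups alone. The number called lower from 6 h to 12 h in the hippocampus was 5 with no filter and 5 with limma-voom. Leaving out 1 library gave 0 to 1 higher and 1 to 2 lower in the hippocampus at 6 h, 1 to 2 higher at 12 h, and 0 to 2 higher from 12 h to 24 h. In the cortex it gave 1 to 2 lower at 6 h, 0 to 1 higher at 12 h and 1 to 2 higher at 24 h, and after saline 0 to 1 higher and 2 to 4 lower. The cause was not tested. Pairing by mouse, with a block correlation of 0.11, gave 1 gene higher and 5 lower in the hippocampus after saline with the limma block, and 1 and 4 with the fixed effect in edgeR, against 1 and 4 without a block. The fifth, Etnppl, was also called by limma-voom without a block. That fit also weighted libraries by quality, which the blocked fit did not, so what the block did to this call was not tested. As a fixed block in edgeR, the mouse moved the tissue difference of Aqp4 to -0.10 at 6 h and 0.10 at 24 h. The largest shift of the all-gene median by another scaling was 0.079. Over all genes, 26 of the counts called higher and 25 of those called lower moved by more than 1.5 times under these settings, with limma-voom calling 1572 genes in the hippocampus at 6 h, against 884 by edgeR, and 1145 in the cortex, against 599. The shallowest library held 16826882 counts.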

Other observations

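Between 12 h and 24 h in the hippocampus 1 of the 62 other astrocyte genes was called higher and 12 lower by edgeR, where 0.885% and 1.26% of all 17289 genes were called. In the cortex 0 of all 17111 genes were called at this step, and the difference between the tissues was not tested. The 62 genes and the reactive list were chosen with results of these data known, so their calls are no independent evidence. The glycogen phosphorylase gene Pygm (log2 fold change -0.60 ± 0.06, adjusted p = 9.75e-06), Ndrg2 (-0.28 ± 0.04, adjusted p = 7.58e-05) and the neurotensin receptor gene Ntsr2 (-0.24 ± 0.05, adjusted p = 0.0061) fell from 12 h to 24 h. Of the reactive list 0 rose and 4 fell over the same step, among them Lcn2, a secreted iron-trafficking protein of inflammation (-1.10 ± 0.17, adjusted p = 0.000809), and Gbp2, an interferon-induced GTPase (-1.37 ± 0.20, adjusted p = 0.00219).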
